A study of Mus musculus with 8 samples.

Results

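HA ChIP-seq peaks that lay in the introns of shorter protein-coding genes were examined in EHMT2-dTAG mESCs, mouse embryonic stem cells in which the endogenous histone methyltransferase EHMT2 carries a degron and an HA tag. A peak was a member when its summit lay on chromosomes 1 to 19, X or Y, inside a protein-coding gene under 300 kb and in no gene of 300 kb or more. The summit also had to lie outside every annotated exon, more than 1 kb from every transcript start and outside soft-masked runs of 5 kb or more. The rule used positions only and no measured value. It selected 10270 of the 70200 peaks in the 4 deposited lists, that is 1254 of 11010 in the C29F4 DMSO list, 6610 of 40816 in the ab9110 DMSO list, 2072 of 16324 in the ab9110 dTAG list and 334 of 2050 in the input dTAG list. The 8 peaks off these chromosomes were left out of the shares.

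All cells were EHMT2-dTAG-mcherry mESCs of a BL6/129 hybrid background, in which FKBP12F36V, a tandem HA tag and an mCherry reporter were placed at the stop codon of Ehmt2, and they were grown on mitomycin C-treated MEF feeders. The C29F4 DMSO list came from 2 clones treated with DMSO for 24 h, whose libraries were merged before peak calling. The ab9110 DMSO and ab9110 dTAG lists came from a separate experiment with another HA antibody, with 1 library of DMSO-treated cells and 1 of cells given the degrader dTAG13 for 24 h. The input dTAG list came from the chromatin of that dTAG experiment before immunoprecipitation. The cells came from picked clones, and for the ab9110 libraries the clone is not given in the labels. The peak lists hold no measure of EHMT2 protein, so its depletion was not checked here. With 1 list per condition there was no replicate error, and no test between conditions was made. Shares carry exact (Clopper-Pearson) 95% intervals that cover counting error only, and neighbouring peaks are not independent.

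EHMT2, also called G9a, works in a complex with EHMT1 and places the dimethyl mark on lysine 9 of histone H3, which is associated with silent genes. It does not read a DNA sequence itself and is known to be brought to chromatin by zinc-finger proteins and other partners. Introns hold many regulatory elements, among them enhancers and sites of repressors such as REST, the factor that keeps neuronal genes silent in other cells. Intronic sequence also holds transposable elements, which the reference marks by soft-masking.

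The sequences below are the 300 bp around the summits of members that led their category, with the genome build GRCm38 (mm10) read on the plus strand. Pex5l (chr3:32983599-32983898, the eighth of 14 introns) and Arhgef10l (chr4:140596847-140597146, the fourth of 27 introns) had among the highest folds of the members called by both antibodies in DMSO and not after dTAG. Dpys (chr15:39780327-39780626, the last of 9 introns) was called in all 3 ChIP lists. Capitals mark matches to words or motifs described under the motif results.
Pex5l: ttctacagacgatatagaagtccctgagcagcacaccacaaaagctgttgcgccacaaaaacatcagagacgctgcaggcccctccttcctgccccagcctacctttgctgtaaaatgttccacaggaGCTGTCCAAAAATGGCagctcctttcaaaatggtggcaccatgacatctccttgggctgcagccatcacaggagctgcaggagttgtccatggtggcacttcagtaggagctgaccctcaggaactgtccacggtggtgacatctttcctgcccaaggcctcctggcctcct
Arhgef10l: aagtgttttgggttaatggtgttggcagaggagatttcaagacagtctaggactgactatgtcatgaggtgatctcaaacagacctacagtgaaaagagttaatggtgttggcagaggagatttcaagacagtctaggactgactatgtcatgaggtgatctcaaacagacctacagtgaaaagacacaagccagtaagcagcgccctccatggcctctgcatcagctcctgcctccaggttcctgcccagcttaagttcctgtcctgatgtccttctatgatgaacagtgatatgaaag
Dpys: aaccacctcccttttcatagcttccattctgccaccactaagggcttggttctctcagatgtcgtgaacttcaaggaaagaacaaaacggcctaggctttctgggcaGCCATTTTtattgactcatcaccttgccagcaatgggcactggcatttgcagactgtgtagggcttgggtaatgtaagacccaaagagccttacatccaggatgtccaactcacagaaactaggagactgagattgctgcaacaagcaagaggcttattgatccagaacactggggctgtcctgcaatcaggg
The Arhgef10l window held a tandem copy, with a stretch of 87 bases repeated exactly 87 bases further on. The Pex5l capitals join the words GCTGTCCA and AAAATGGC, and the Dpys capitals are AAAATGGC read on the opposite strand.

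A second set is shown because the frequency of its motif differed widely between the lists. These are 60 bp windows around the joined REST site (TTCAGCACCNNGGACAGCGC, at most 3 of its 18 fixed letters different) in the C29F4 members with the highest folds among those with a match, except that of Celf4, which had the highest fold of all and is not shown. They are read on the strand that holds the motif. They lay in Rph3a (chr5:120961166-120961225, minus strand), Nsun3 (chr16:62758526-62758585, minus strand), Xkr6 (chr14:63713201-63713260 and chr14:63681728-63681787, plus strand), Myo18b (chr5:112718783-112718842, minus strand) and Erich1 (chr8:14072707-14072766, plus strand). Capitals mark the matched stretch.
Rph3a: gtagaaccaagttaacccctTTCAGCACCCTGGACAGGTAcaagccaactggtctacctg
Nsun3: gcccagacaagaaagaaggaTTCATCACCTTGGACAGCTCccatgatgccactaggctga
Xkr6 first: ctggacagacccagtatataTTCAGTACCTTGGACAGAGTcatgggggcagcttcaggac
Xkr6 second: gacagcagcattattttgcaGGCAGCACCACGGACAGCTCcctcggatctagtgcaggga
Myo18b: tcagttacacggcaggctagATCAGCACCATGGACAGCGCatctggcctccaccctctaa
Erich1: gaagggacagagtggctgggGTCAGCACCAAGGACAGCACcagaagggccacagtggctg
For comparison, 3 windows with the ESRRB motif TCAAGGTCA are given from C29F4 members that were also called by ab9110 in DMSO and after dTAG, in Pld1 (chr3:28114035-28114094, plus strand), Hcrtr2 (chr9:76315276-76315335, plus strand) and Capsl (chr15:9453112-9453171, minus strand).
Pld1: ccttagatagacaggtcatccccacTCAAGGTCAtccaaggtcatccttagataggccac
Hcrtr2: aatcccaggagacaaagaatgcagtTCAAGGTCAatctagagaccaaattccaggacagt
Capsl: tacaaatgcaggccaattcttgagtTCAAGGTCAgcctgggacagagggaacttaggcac

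Introns of shorter genes held fewer peaks than their share of the genome in every list. They made up 20.8% of the assembled bases (551 Mb). The share of members was 11.4% (10.8 to 12.0) in the C29F4 list and 16.2% (15.8 to 16.6) in the ab9110 DMSO list. It was 12.7% (12.2 to 13.2) in the ab9110 dTAG list and 16.3% in the much smaller input list. Per Mb of eligible intron there were 2.27 C29F4 members, 12.0 ab9110 DMSO members, 3.76 ab9110 dTAG members and 0.606 input members. Sequence within 1 kb of a transcript start held 42.8 ab9110 DMSO peaks and 45.3 ab9110 dTAG peaks per Mb. From DMSO to dTAG the ab9110 density therefore fell from 12.0 to 3.76 per Mb in the introns of shorter genes. It was 42.8 and 45.3 per Mb around starts. The fall was not particular to these introns. In introns of genes of 300 kb or more the density went from 11.0 to 2.52 per Mb. It went from 13.3 to 3.22 in the remaining sequence, outside protein-coding genes, exons, starts and long masked runs. In ab9110 DMSO these 2 classes also held less than their share of bases, with 8.09% of peaks against 11.3% and 46.7% against 54.0%. The coverage behind these lists differed, and was taken as the lowest background recovered from the deposited values of each list. It was 2.11 fragments in ab9110 DMSO, 1.23 in ab9110 dTAG, 3.64 in C29F4 and 0.978 in the input. Whether it equals the mean coverage was not tested, as a control may have entered the calling.

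Most members were weak peaks. The median fold enrichment, the summit's fragment pileup over the caller's local background, was 3.48 in C29F4 (range 1.73 to 34.7), 3.22 in ab9110 DMSO (1.88 to 20.3), 3.66 in ab9110 dTAG (2.58 to 16.3) and 4.55 in the input (3.91 to 13.1). The median summit rested on 27 fragments in C29F4, 13 in ab9110 DMSO, 10 in ab9110 dTAG and 9 in the input. The input list thus held the fewest members, and their high folds rested on the fewest fragments. The median −log10 q-values were 5.42, 2.14, 1.94 and 1.46 in the same order. Ranked within its own list, the median member stood at the 42.7th percentile of fold in C29F4, the 44.8th in ab9110 DMSO and the 44.7th in ab9110 dTAG. Only 4.31% of C29F4 members were in the top 10% of their list by fold.

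Which intronic sites were called by both HA antibodies in cells with EHMT2 was asked first. Of the 1254 C29F4 members, 768 overlapped an ab9110 DMSO peak by at least 1 bp (61.2%, 58.5 to 64.0), against 67.0% of all C29F4 peaks and 56.4% (53.2 to 59.6) of C29F4 peaks in the introns of genes of 300 kb or more. Seen from the other side, 771 of 6610 ab9110 DMSO members overlapped a C29F4 peak (11.7%, 10.9 to 12.5), against 18.1% of all ab9110 DMSO peaks. Peaks within long soft-masked runs, which the rule leaves out, were shared most, at 84.3% of C29F4 and 57.5% of ab9110 DMSO peaks. In the remaining sequence outside protein-coding genes, 61.1% of C29F4 peaks were shared, close to the members' share. There 16.1% of ab9110 DMSO peaks were shared. With q-values under 0.001 in both lists, 24.2% of ab9110 DMSO members overlapped a C29F4 peak, against 35.5% of all. Of the ab9110 DMSO peaks that C29F4 members overlapped, 97.8% were members themselves, and the paired summits lay a median of 87 bp apart. Hardly any shared the input peaks: 3 C29F4 members (0.239% against 0.981% of all C29F4 peaks), 18 ab9110 DMSO members (0.272% against 0.625%) and 2 ab9110 dTAG members (0.0965% against 0.643%) overlapped one.

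**Figure D1:**
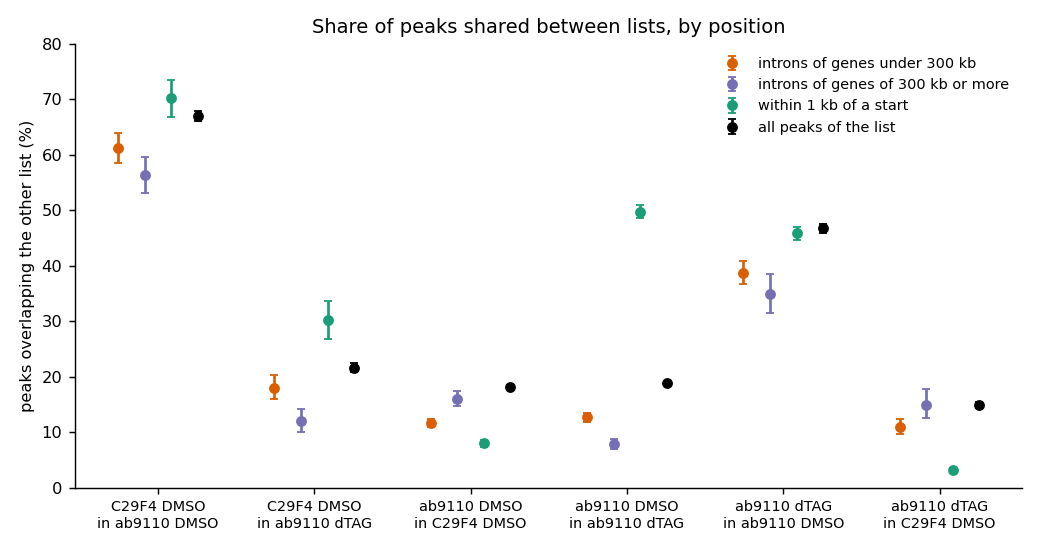
Share of peaks (y axis, %) of one list that overlap a peak of another by at least 1 bp, for introns of genes under 300 kb, introns of genes of 300 kb or more, sequence within 1 kb of a start and all peaks; bars are exact 95% intervals. Introns of shorter genes sat below all peaks of the list in all 6 pairs, and 12.7% of ab9110 DMSO members against 49.7% of peaks near starts overlapped a dTAG peak. All peaks include those near starts and in long soft-masked runs.

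Sharing between the antibodies was higher in each successive group of C29F4 members ranked by −log10 q, but not when they were ranked by fold. By −log10 q, 38.8% (32.7 to 45.1) of the lowest 20% of C29F4 members and 87.3% (82.5 to 91.1) of the highest 20% overlapped an ab9110 DMSO peak, with 47.4%, 59.8% and 72.9% in between. By fold the 5 groups, from lowest to highest, gave 65.2%, 43.8%, 59.4%, 59.4% and 78.5%, so that the lowest group shared more than the 3 middle ones. Over the 768 shared members the folds in the 2 lists were loosely related across sites (Spearman's rho 0.228, Pearson's r 0.390, both lists called on mm10 with 1 random location for each repeat read). The median fold was 3.57 in C29F4 and 4.24 in ab9110 DMSO, and the C29F4 fold was the higher of the pair at 266 sites (34.6%).

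**Figure D2:**
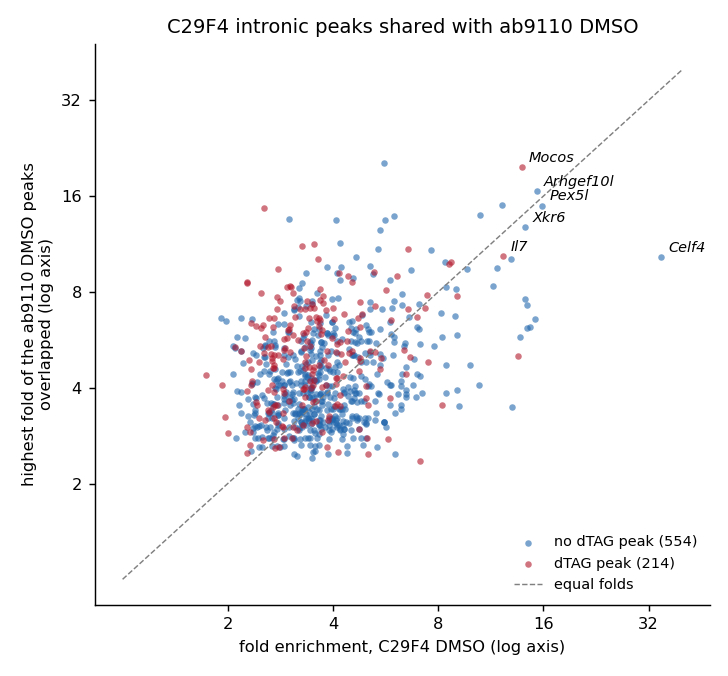
Fold enrichment of the 768 shared members in C29F4 (x axis, log) and the highest fold of the ab9110 DMSO peaks they overlap (y axis, log), coloured by an overlap with an ab9110 dTAG peak; the dashed line marks equal folds. The 214 members also called after dTAG lie among the rest, and Celf4 stands alone at 34.7 in C29F4 against 10.3 in ab9110 DMSO.

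The strongest member called by both antibodies in DMSO and not after dTAG lay in an intron of Celf4, which encodes a neuronal RNA-binding protein, with a fold of 34.7 in C29F4 and 10.3 in ab9110 DMSO. Its C29F4 summit held 323 fragments over a background of 8.34. Pex5l, a regulator of HCN channels in neurons, had 15.9 in C29F4 and 14.9 in ab9110 DMSO, a near equal pair. Arhgef10l, a guanine nucleotide exchange factor, was the one of the leading 6 with the higher value in ab9110 DMSO, at 16.6 against 15.3. The folds of Adcy5, an adenylyl cyclase, were 15.1 in C29F4 and 6.55 in ab9110 DMSO. Those of Rph3a, which encodes the synaptic vesicle protein rabphilin, were 14.7 and 6.19, and those of the complement protease gene Masp1 were 14.4 and 6.18. None of these 6 sites had an ab9110 dTAG or input peak, and none sat mainly in repeats, with 0% (Adcy5) to 41.6% (Masp1) of the peak soft-masked.

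Fewer intronic sites were called after dTAG. Of the 6610 ab9110 DMSO members, 837 overlapped an ab9110 dTAG peak (12.7%, 11.9 to 13.5), against 18.9% of all ab9110 DMSO peaks, 7.88% (6.98 to 8.85) in introns of longer genes and 49.7% (48.5 to 50.9) near starts. Of the 1254 C29F4 members, 226 overlapped an ab9110 dTAG peak (18.02%, 15.9 to 20.3), against 21.7% of all C29F4 peaks. Of the 2072 ab9110 dTAG members, 803 overlapped an ab9110 DMSO peak (38.8%, 36.7 to 40.9), against 46.8% of all ab9110 dTAG peaks, and 227 overlapped a C29F4 peak (11.0%, 9.64 to 12.4), against 14.8%. In the remaining sequence outside protein-coding genes, 10.7% of ab9110 DMSO and 15.2% of C29F4 peaks overlapped a dTAG peak, both below the members' shares. There 43.8% of dTAG peaks overlapped an ab9110 DMSO peak and 16.8% a C29F4 peak, both above the members' shares. Most dTAG members, 1258 (60.7%, 58.6 to 62.8), overlapped no peak of either DMSO list. At q-values under 0.001 in both lists, 65.6% of dTAG members overlapped an ab9110 DMSO peak, against 51.7% of all dTAG peaks, so that the members' share was then the higher one. In such bulk chromatin, a site bound in fewer cells and a site bound less in every cell cannot be told apart.

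By its lowest recovered background the dTAG library was shallower, and the loss was set beside what thinning to its coverage would give. From the fragments behind each summit, thinned to 58.2% of the ab9110 DMSO coverage, 2317 of the 6610 members (35.0%) were expected to reach the lowest −log10 p of the dTAG list, 4.28, while 837 (12.7%) overlapped one of its peaks. Around starts 42.5% were expected and 49.7% overlapped. Among members with at least a 99% chance of passing, 155 of 283 (54.8%, 48.8 to 60.7) overlapped a dTAG peak. The same share was 81.8% (77.5 to 85.5) of 384 peaks near starts and 55.8% (46.5 to 64.9) of 120 peaks in introns of longer genes. Ranked by fold, 12.2% of the lowest 20% of members overlapped a dTAG peak against 13.2% expected, and 29.4% (27.0 to 32.0) of the highest 20% overlapped one against 81.7% expected. Between them the 3 middle groups had 4.54%, 6.13% and 11.04% against 14.1%, 24.9% and 41.3% expected. Ranked by −log10 q, the lowest 20% already had 3.10% against 9.56%, and the highest 35.9% against 85.1%. With the ab9110 DMSO list thinned to the dTAG coverage, 31.7% of its 1703 members overlapped a dTAG peak, and with lists of equal size 27.4% of 2278 did, against 38.3% and 34.2% of all its peaks. These expected values assume that the lowest background of each list stands for its coverage, and that background and signal shrink alike. They also start from summit counts of peaks that had already passed the caller in ab9110 DMSO. Counts selected in this way tend to be high, so an untreated second library could also fall short of the expected values. How far it would was not tested. With 1 dTAG library its own enrichment cannot be told apart from the treatment.

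**Figure D3:**
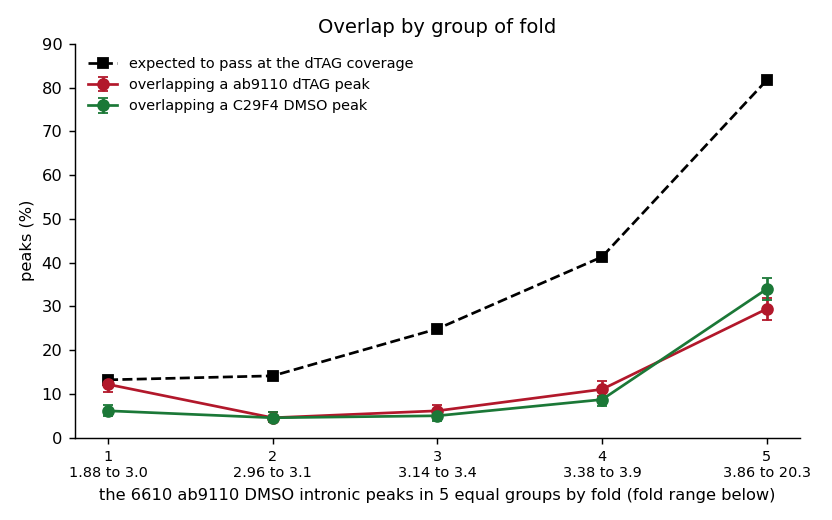
The 6610 ab9110 DMSO members in 5 equal groups by fold (x axis), with the share (y axis, %) that overlaps an ab9110 dTAG peak (red), a C29F4 peak (green) and the share expected to pass at the dTAG coverage (black, dashed); bars are exact 95% intervals. The expected share lies above the observed share with dTAG in each group, by least in the lowest, 13.2% and 12.2%, then 14.1% and 4.54% in the next, and by most in the highest, 81.7% and 29.4%. Expected shares start from summit counts of peaks already selected in ab9110 DMSO, which tend to be high.

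Sites called in all 3 ChIP lists were a minority. Of the C29F4 members, 554 (44.2%, 41.4 to 47.0) were also called in ab9110 DMSO and not after dTAG, 214 (17.1%, 15.0 to 19.3) in both ab9110 lists, 12 in dTAG without DMSO and 474 (37.8%, 35.1 to 40.5) in neither. The strongest of the 214 lay in Mocos, a molybdenum cofactor sulfurase gene, with folds of 13.9 in C29F4, 19.7 in ab9110 DMSO and 5.90 in ab9110 dTAG. For Dpys, which encodes a pyrimidine-degrading enzyme, they were 13.5, 5.03 and 5.47, so that the dTAG value was not below that of ab9110 DMSO. For Il7, a lymphocyte growth factor gene, the folds were 12.3, 10.4 and 3.91, and for Elavl4, a neuronal RNA-binding protein gene, 9.05, 7.79 and 5.13. The dTAG fold was the lowest of the 3 at Mocos, Il7 and Elavl4, and the ab9110 DMSO fold at Dpys. These sites were chosen by their C29F4 fold. Over all 837 ab9110 DMSO members that overlapped a dTAG peak, the median fold was 3.75 in ab9110 DMSO and 3.94 in ab9110 dTAG. The ab9110 DMSO fold was the higher at 345 of them (41.2%). Over the 226 C29F4 members that overlapped a dTAG peak, the medians were 3.38 in C29F4 and 4.15 in ab9110 dTAG.

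The strongest members called in 1 list alone were read next. After dTAG they included sites in Hnrnpr, an RNA-binding protein gene (6.26), Fryl (5.94) and Nrp2, a semaphorin receptor gene (5.71). The Nrp2 site lay in the first intron, 3282 bp from a start, with 23 CpG in its 300 bp. C29F4 alone called Kmt2e, which encodes a SET domain protein (8.98), and Csrnp3 (7.98). Alone in ab9110 DMSO were a site in Afm, the gene of the plasma protein afamin (14.6), and one in Enox2 (11.5), and these 2 peaks were mostly repeats, with 65.7% and 74.4% of their bases soft-masked. The strongest input members lay in Nkap (13.1), wholly soft-masked, and Sspn, the sarcospan gene (13.1), which held no soft-masked base.

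The ab9110 DMSO members differed by which other list also called them. The 619 shared with dTAG and not with C29F4 lay a median of 6412 bp from the nearest start, and 42.5% (38.6 to 46.5) were within 5 kb of one. For the 553 shared with C29F4 and not with dTAG the median was 11488 bp and the share 23.5% (20.0 to 27.3), and for the 5220 shared with neither it was 9914 bp and 27.9% (26.7 to 29.1). The dTAG-shared sites also had the highest GC content, a median of 50.3% of the 300 bp around the summit, against 47.7% in the C29F4-shared sites and 43.3% in tiles of 300 bp placed every 1000 bp along the eligible introns. Members in all 3 lists were the strongest and widest, with a median fold of 5.06 and a median width of 1104 bp in ab9110 DMSO, against 3.20 and 341 bp for those in that list alone. The share expected to pass at the dTAG coverage was 61.4% for the C29F4-shared members, none of which overlapped a dTAG peak by definition, and 57.1% for the dTAG-shared ones.

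Members were about as rich in repeats as the introns around them. Soft-masked bases made up 30.1% of C29F4 member sequence, 30.9% in ab9110 DMSO and 28.4% in ab9110 dTAG, against 28.7% of all eligible bases. Over all peaks the same shares were 57.1%, 42.0% and 26.1%, so that the intronic C29F4 and ab9110 DMSO members were far less masked than their lists as a whole. Soft-masked runs of 5 kb or more were left out by the rule, which lowers the members' share. The input members were more masked, at 39.0%, with 42.2% (36.9 to 47.7) of their summits in masked bases against 27.6% (25.1 to 30.2) of C29F4 member summits.

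Within the gene, members leaned little toward its start. The first intron of the principal transcript held 29.2% of C29F4 members (26.6 to 32.0), 32.0% of ab9110 DMSO members (30.8 to 33.2), 32.3% of ab9110 dTAG members (30.2 to 34.5) and 26.4% of input members (21.6 to 31.6), against 26.8% of the eligible bases. The 138 C29F4, 627 ab9110 DMSO, 192 ab9110 dTAG and 23 input members outside the introns of a principal transcript were left out of these shares. Between 1 and 2 kb from a start, just beyond the limit of the rule, there were 2.17 C29F4, 11.2 ab9110 DMSO and 4.69 ab9110 dTAG members per Mb. At 20 to 50 kb the densities were 2.74, 12.7 and 3.45. The dTAG density was thus higher near starts, and those of the 2 DMSO lists were higher far from them. Input members leaned like those of dTAG over these distances, with 0.811 per Mb at 1 to 2 kb and 0.503 at 20 to 50 kb. These rest on 43 and 52 input members. Over 100 kb from a start the input density was 0.853, from 5 members.

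The length of the host gene gave a similar split. C29F4 members per Mb of eligible intron numbered 1.18 in genes under 10 kb, 1.53 at 10 to 30 kb, 2.08 at 30 to 100 kb, 2.54 at 100 to 200 kb and 2.88 at 200 to 300 kb, and introns of genes of 300 kb or more had 3.16. The ab9110 DMSO densities ran from 9.12 to 12.6 and 12.5 over the same classes, with 11.0 in the longer genes. The ab9110 dTAG densities went the other way, from 3.80 under 10 kb and 4.11 at 30 to 100 kb to 2.81 at 200 to 300 kb and 2.52 beyond. Input densities were also lower in longer genes. They were 0.929 under 10 kb, 0.586 at 30 to 100 kb, 0.618 at 100 to 200 kb and 0.492 at 200 to 300 kb. These are densities over classes of genes with no replicate. Genes under 10 kb had 11.8 Mb of eligible intron, and 13 of 5064 held a C29F4 member.

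**Figure D4:**
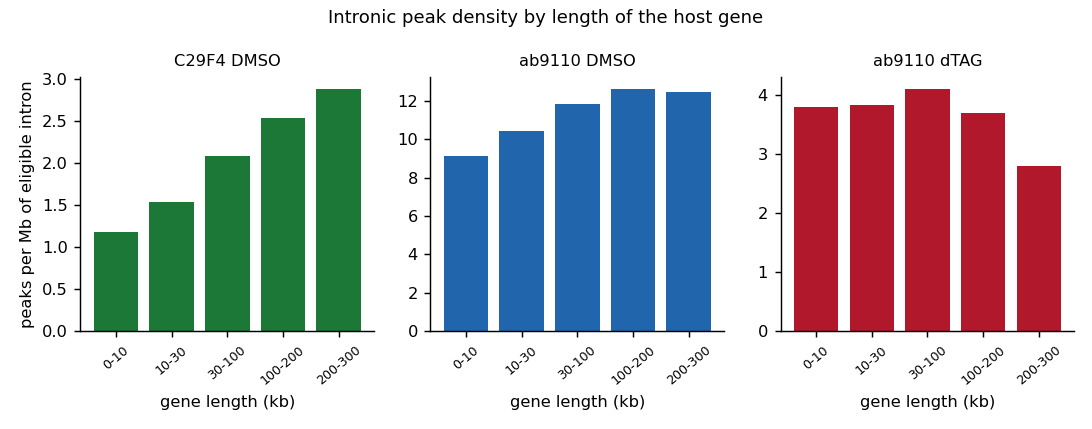
Members per Mb of eligible intron (y axis) by length of the host gene (x axis, kb) in the C29F4 DMSO, ab9110 DMSO and ab9110 dTAG lists, each bar 1 value without replicate. C29F4 density was 1.18 per Mb in the shortest and 2.88 in the longest genes, while dTAG density was 3.80 and 2.81.

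Members stood mostly alone. The next C29F4 member was a median of 269 kb away, and 11.0% (9.33 to 12.9) of C29F4 members had another within 5 kb, compared with 23.1% (22.0 to 24.1) of the far denser ab9110 DMSO members. Chromosome X held 4.25% of the eligible bases but 1.83% (1.17 to 2.74) of C29F4, 1.27% (1.01 to 1.57) of ab9110 DMSO and 1.16% (0.744 to 1.72) of ab9110 dTAG members. Its share of input members was 2.10% (0.847 to 4.27). Chromosome 8 held 4.04% of the bases and 6.06% (4.80 to 7.53), 5.31% (4.78 to 5.88) and 5.84% (4.87 to 6.94) of the ChIP members in the same order. The number of X chromosomes in the cells is not given in the labels, and its part in the X value was not tested.

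At least 1 C29F4 member lay in 1021 of the 18477 genes with eligible introns (5.53%), an ab9110 DMSO member in 3789 (20.5%), an ab9110 dTAG member in 1702 (9.21%) and an input member in 332 (1.80%). At q-values under 0.001 the last 3 counts were 1546, 405 and 22. Of the 1021 genes, 837 held a single C29F4 member and 6 held 5 or more. Host genes were long, with a median length of 100 kb against 20.8 kb for all eligible genes. Of the C29F4 genes, 870 also held an ab9110 DMSO member, which was 85.2% of the C29F4 genes and 23.0% of the ab9110 DMSO genes.

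The genes with the most C29F4 members were Sult2a3, a sulfotransferase gene, with 6 members in C29F4, 4 in ab9110 DMSO and 3 in ab9110 dTAG, and Syndig1, which encodes a synaptic membrane protein, with 6, 8 and 2. Sult2a3 was 55.6 kb long, above the median of eligible genes (20.8 kb) and below that of C29F4 host genes (100 kb). It had 132 C29F4 members per Mb of its introns. Tmc1, a hair-cell channel gene, held 5, 6 and 1. Srgap3, which encodes a GTPase-activating protein, held 5, 1 and 1, and Spidr, a DNA repair gene, 5, 2 and 3. In ab9110 DMSO the leading genes were Btbd11 (14 members), Ppp1r9a (13) and Sgms1 (13), with 1, 4 and 2 C29F4 members. After dTAG they were Usp7, a deubiquitinase gene, Esrrb, a nuclear receptor gene of pluripotent cells, and Ctif, a translation factor gene, with 6 members each, against 6, 8 and 9 in ab9110 DMSO and 1, 0 and 1 in C29F4. Each of these 3 thus held at least as many ab9110 DMSO as dTAG members.

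Of 23 core pluripotency factor genes with eligible introns, 12 held an ab9110 DMSO member and 7 an ab9110 dTAG member, against 20.5% and 9.21% of all genes, while 1 held a C29F4 member. Their introns held 46.3 ab9110 DMSO members and 22.3 ab9110 dTAG members per Mb, against 11.8 and 3.69 over all genes, but 1.72 C29F4 members per Mb, against 2.23. Esrrb held 0 C29F4, 8 ab9110 DMSO and 6 ab9110 dTAG members, and Tfcp2l1, another factor of the naive state, held 0, 5 and 2. Tcf7l1 and Mycn held 2 in ab9110 DMSO and 1 after dTAG each. The C29F4 member was in Dppa2, a regulator of the 2-cell-like state, 1163 bp from a start, with a fold of 3.77 in C29F4, 4.88 in ab9110 DMSO and 3.05 in ab9110 dTAG. The list holds 0.583 Mb of eligible intron, and the C29F4 density rests on 1 member.

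Among 37 genes of H3K9 methylation and heterochromatin, 6 held a C29F4 member (16.2%), 13 an ab9110 DMSO member (35.1%) and 9 an ab9110 dTAG member (24.3%), against 5.53%, 20.5% and 9.21% of all genes. The genes of this list were longer than average, with a median of 41.3 kb against 20.8 kb. Per Mb of eligible intron they held 5.64 C29F4, 23.2 ab9110 DMSO and 8.14 ab9110 dTAG members, against 2.23, 11.8 and 3.69 over all genes. These densities rest on 9, 37 and 13 members in 1.60 Mb. Zfp462, a zinc-finger gene, held 3, 12 and 3, and also 1 input member, and one of its C29F4 sites had folds of 5.28, 7.23 and 3.38. Cdyl, a chromodomain corepressor gene, held 2 in each ChIP list, with folds of 4.96, 3.72 and 3.94 at one of them. Ehmt2 itself held no C29F4 member and 1 in each ab9110 list, in 4.34 kb of eligible intron. Of 22 totipotency and 2-cell genes, 1 held a C29F4 member (4.55%), Tdpoz1 (fold 3.51), 2 held an ab9110 DMSO member (9.09%) and 0 a dTAG member, in 0.392 Mb of eligible intron. These genes were short, with a median of 8.89 kb, and held 2.55 C29F4 and 5.11 ab9110 DMSO members per Mb.

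The 4 signalling lists differed in their C29F4 counts, which rest on 1 to 3 genes each and are to be read against 5.53%, 20.5% and 9.21% of all genes with a C29F4, an ab9110 DMSO and an ab9110 dTAG member. In the Wnt list 1 of 53 genes held a C29F4 member (1.89%), Axin2 (fold 3.09, no ab9110 peak), while 16 held an ab9110 DMSO member (30.2%) and 7 an ab9110 dTAG member (13.2%). In the TGF-beta and BMP list 2 of 43 genes (4.65%) did, Bmp7 (3.64 in C29F4 and 3.09 in ab9110 DMSO) and Ski (3.03 in C29F4 and 4.21 after dTAG), against 14 (32.6%) and 8 (18.6%). The FGF and ERK list had 2 of 36 genes with a C29F4 member (5.56%), 13 with an ab9110 DMSO member (36.1%) and 6 with a dTAG member (16.7%). Etv5, a transcription factor gene downstream of ERK, held 2, 7 and 4 of these. Of 32 Notch and Hedgehog genes, 3 (9.38%), 9 (28.1%) and 4 (12.5%) held members, with Rbpj at 3, 8 and 3 and Gli3 at 1, 6 and 0. C29F4 members per Mb were 0.398, 1.07, 2.43 and 3.51 in the Wnt, TGF-beta and BMP, FGF and ERK, and Notch and Hedgehog lists, against 2.23 over all genes. Neural and germ layer transcription factor genes had 5 (8.93%), 18 (32.1%) and 4 (7.14%) of 56, among them Bcl11b (3.70 in C29F4 and 3.25 in ab9110 DMSO). Germline and meiosis genes had 6 (13.04%), 14 (30.4%) and 9 (19.6%) of 46, among them Prdm1 (6.39 and 5.42) and Stk31 (5.95 and 5.05). No dTAG peak was called at the Bcl11b, Prdm1 and Stk31 sites. Shares of genes depend on gene length. Median lengths in the Wnt, TGF-beta and BMP, FGF and ERK, Notch and Hedgehog, neural and germline lists were 32.2, 39.4, 34.6, 23.1, 20.9 and 48.7 kb, against 20.8 kb. In the same order, ab9110 DMSO members per Mb were 11.1, 14.4, 25.1, 18.2, 11.6 and 10.9, against 11.8 over all genes. The ab9110 dTAG members per Mb were 3.18, 4.80, 8.91, 4.21, 1.94 and 4.74, against 3.69.

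Among gene families, solute carrier genes held 2.95 C29F4 members per Mb, potassium channel subunit genes 3.84 and Zfp-named zinc-finger genes 2.81, against 2.23 over all genes. The potassium channel genes had 13 C29F4 members in 8 of 73 genes, 57 ab9110 DMSO members in 24 and 8 ab9110 dTAG members in 8. Their ab9110 DMSO density was 16.9 per Mb against 11.8, and their dTAG density 2.37 against 3.69. Collagen genes, with long introns, had 2.13 C29F4, 10.4 ab9110 DMSO and 1.33 ab9110 dTAG members per Mb. Of 801 olfactory receptor genes, which have little intron, 8 held a C29F4 member (0.999%, against 5.53% of all genes), and their density was 3.99 per Mb, from 9 members in 2.25 Mb.

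Matches to parts of the REST site were more frequent in C29F4 members than in the introns they came from. The left part TTCAGCACC was found on either strand in the 300 bp around 3.11% (2.22 to 4.23) of C29F4 summits, against 0.294% of the 551608 tiles. Its share was 1.32% (1.06 to 1.62) in ab9110 DMSO, 0.627% (0.334 to 1.07) in ab9110 dTAG and 0.299% (0.00758 to 1.66) in the input. The right part GGACAGCGC was in 1.28%, 0.182% and 0.145% of the members of the 3 ChIP lists, and in 0.0470% of tiles. It was in 0 of the 334 input members, for which the exact interval reached 1.10%. The YY1 motif AAGATGGC, bound by a ubiquitous zinc-finger factor, was in 7.34% (5.95 to 8.92) of C29F4, 4.05% (3.59 to 4.56) of ab9110 DMSO and 2.56% (1.92 to 3.33) of ab9110 dTAG members, against 2.32% of tiles. The shares of all 3 motifs were ordered from C29F4 down to ab9110 DMSO and ab9110 dTAG. By number, the larger ab9110 DMSO list had more members with the left part (87 against 39 in C29F4) and with YY1 (268 against 92). The right part was in only 16, 12 and 3 members of the 3 ChIP lists. A match is a description and no evidence that the factor was there.

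Motifs of other factors were distributed differently. The KLF motif CCACACCC was in 4.86% (3.74 to 6.21) of C29F4, 7.31% (6.69 to 7.96) of ab9110 DMSO and 6.13% (5.14 to 7.25) of ab9110 dTAG members, against 2.199% of tiles. The ESRRB motif TCAAGGTCA was in 2.95% (2.09 to 4.04), 3.15% (2.74 to 3.60) and 2.75% (2.09 to 3.55), against 0.797%. Of the 37 C29F4 members with it, 18 overlapped a dTAG peak (48.6%, 31.9 to 65.6), compared with 17.1% of the members without it. This was the widest such difference among the 18 motifs in C29F4. In ab9110 DMSO, 43 of 208 members with the ESRRB motif did (20.7%, 15.4 to 26.8), compared with 12.4% without it. In C29F4 the shares were 26.2% with and 17.6% without the KLF motif, and 5.13% with and 18.4% without the left REST part. In 20 of the 37 C29F4 members with the ESRRB motif (54.1%), and in 124 of the 208 in ab9110 DMSO (59.6%), a match was wholly soft-masked. As repeat reads were placed at random, such peaks may belong to other copies. In C29F4 the same held for 40 of 92 members with YY1 (43.5%) and 4 of 39 with the left REST part (10.3%). The E-box CACGTG of MYC and MGA was in 2.95%, 5.01% and 6.18%, against 3.54% of tiles, and in 10.0% (7.77 to 12.7) of the ab9110 DMSO members shared with dTAG and not with C29F4. The CTCF core CCANNAGGG was in 6.78%, 6.54% and 5.31%, against 3.83%, and the POU octamer ATGCAAAT in 3.67%, 2.92% and 3.62%, against 1.98%. The CA repeat CACACACA was rarer in ChIP members than in tiles, at 3.59%, 7.16% and 7.48% against 10.7%. Members were richer in GC than the tiles, with medians of 45.3% in C29F4, 48.3% in ab9110 DMSO and 47.7% in ab9110 dTAG against 43.3%, and its part in the motif shares was not tested.

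**Figure D5:**
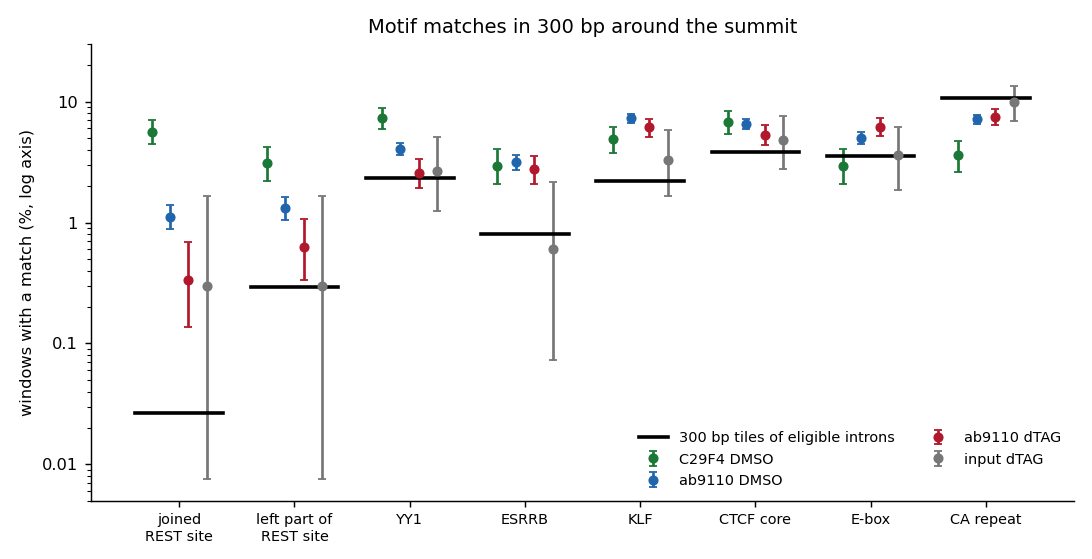
Share of members (y axis, %, log) with a match in the 300 bp around the summit, by motif and list, with exact 95% intervals; black lines give the share of tiles of the eligible introns. The joined REST site is at 5.66% in C29F4, 1.12% in ab9110 DMSO and 0.338% in ab9110 dTAG against 0.0268% of tiles, whereas ESRRB lies between 2.75% and 3.15% in the 3 ChIP lists.

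The 2 parts of the REST site joined as in the sequences above (TTCAGCACCNNGGACAGCGC, at most 3 of 18 letters different, a form chosen after the values were seen) matched 71 of 1254 C29F4 members (5.66%, 4.45 to 7.09). They matched 74 ab9110 DMSO members (1.12%, 0.880 to 1.40), 7 ab9110 dTAG members (0.338%, 0.136 to 0.695), 1 input member (0.299%) and 0.0268% of tiles. The match lay a median of 57 bp from the C29F4 summit. Among C29F4 members it was in 9.96% (6.55 to 14.4) of the highest 20% by fold, 4.00% (1.93 to 7.23) of the lowest, and 4 of the 20 strongest, which were in Celf4, Rph3a, Nsun3 and Xkr6. Of the 71, 47 overlapped an ab9110 DMSO peak (66.2%), compared with 60.9% of the other C29F4 members. Only 3 of these 47 also overlapped a dTAG peak (6.38%), compared with 211 of the 721 without a match (29.3%).

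The folds at the matched sites were read in each list. Nsun3, a mitochondrial methyltransferase gene, had 14.2 in C29F4 and 7.59 in ab9110 DMSO. Xkr6 had 2 such members, with 14.2 and 12.8 at one and 8.93 and 6.70 at the other. Myo18b, an unconventional myosin gene, had 8.43 and 3.84, Erich1 8.36 and 9.90, and Crhr2, a corticotropin-releasing hormone receptor gene, 7.81 and 5.39. None of these had a dTAG peak. Lower folds were found at matches in the potassium channel genes Kcnj6 (4.50 and 2.93 at one site, 4.14 and 7.65 at the other), Kcnmb2 (5.03 and 4.05) and Kcnab2 (3.42 and 3.16), the calcium channel gene Cacna1a (2.37 and 3.00), and the glutamate receptor gene Grin3a (3.70 and 4.67). Slc12a5, which encodes a neuronal chloride transporter (3.62), and Dcx, a microtubule protein gene of young neurons (3.23), were called in C29F4 alone. The 3 matched members called in all ChIP lists included sites in Gad1, which encodes a GABA-synthesising enzyme (3.85, 2.61 and 3.86 in C29F4, ab9110 DMSO and ab9110 dTAG) and Carmil2 (3.08, 3.00 and 4.23). Matches also lay in genes of other kinds. Among them were Col28a1 (7.55) and Kynu (7.33), called in C29F4 alone, and Krt14 (4.44 and 6.44) and Hnf4a (2.89 and 4.07). All these genes were picked after their values were seen. How many of the 67 genes with a match are neuronal was not counted.

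Read from the genome, the eligible introns held 517 such matches. A C29F4 peak covered 87 of them (16.8%, 13.7 to 20.3), an ab9110 DMSO peak 98 (18.96%, 15.7 to 22.6) and an ab9110 dTAG peak 6 (1.16%, 0.427 to 2.51). No input peak did (0 of 517, for which the exact interval reached 0.711%). Members themselves covered 0.122%, 0.614%, 0.203% and 0.0147% of the eligible bases in these lists. Of the 103 matches with 2 letters different, 34 (33.0%, 24.1 to 43.0) lay in a C29F4 peak, and of the 383 with 3 different, 42 (11.0%, 8.02 to 14.5). Of 15425 ESRRB motifs 60 (0.389%) lay in a C29F4 peak, 349 (2.263%) in an ab9110 DMSO peak and 122 (0.791%) in an ab9110 dTAG peak. Of 44192 YY1 motifs 156 (0.353%), 441 (0.998%) and 109 (0.247%) did. These motifs are far shorter than the joined REST site, so their shares cannot be set directly against its own. The left part of the REST site alone, TTCAGCACC, is of like length. Of its 5440 exact matches, 61 (1.12%), 117 (2.15%) and 14 (0.257%) lay in a peak of these 3 lists.

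The 8-letter words with the highest ratio of members to tiles in C29F4, among those in at least 2% of members, shared letters with the YY1 motif. AAATGGCG was in 2.39% (1.62 to 3.40) of members against 0.182% of tiles, AGATGGCG in 3.75% (2.77 to 4.95) against 0.331%, and AAAATGGC in 9.81% (8.22 to 11.6) against 1.78%. A word unlike these, GGTAGACC, was in 3.59% (2.63 to 4.77) against 0.400%, and in 6.12% (4.14 to 8.67) of the 474 C29F4 members that no ab9110 list shared. GCTGTCCA, whose other strand shares letters with the right part of the REST site, was in 4.86% (3.74 to 6.21) against 1.10%. In ab9110 DMSO the leading word was CAAGGTCA, part of the ESRRB motif, in 7.17% (6.56 to 7.82) against 1.91%, followed by GCCACACC in 5.49% (4.95 to 6.07) against 1.503%. In ab9110 dTAG the leading words were GC-rich, with GCCCCGCC in 3.04% (2.34 to 3.87) against 0.355%. These words were picked from the same peaks in which they are counted, so their shares are descriptions.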

How the data were processed

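HA ChIP-seq libraries of EHMT2-dTAG mESCs had been double crosslinked with DSG and formaldehyde and sequenced in paired ends. Per the submitters' processing notes and the study's methods, trimmed reads were mapped by the authors with STAR 2.7.10 (mm10), each multi-mapping read being given 1 random best location, and duplicates were removed with Picard 2.26.0. High-signal regions were removed, with SAMtools 1.14 and bedtools 2.30.0 also named, and peaks were called with MACS2 2.2.6 and kept at a q-value under 0.05. Whether a control entered the calling is not given in the sources used here. The deposited peak lists hold the fold enrichment at the summit (a linear ratio), −log10 p-values and −log10 q-values, and a score that is 10 times −log10 q in C29F4 and 10 times −log10 p in the other lists. The lowest −log10 q was 1.31 to 1.35 in each list. The C29F4 list was called on 2 merged samples, and the other 3 on 1 library each. The other input libraries were not analysed here. As repeat reads were placed at random, a peak in a repeat may belong to another copy.

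Peaks were classified with GENCODE M21 and the soft-masking of GRCm38, in Python 3.11.15 (numpy 2.4.6, pandas 2.3.3, scipy 1.17.1) with bedtools 2.31.1, and plotted with matplotlib 3.10.9. Summit fragments were recovered from fold and p-value, within 0.01, for all peaks, and the calculation was checked on simulated data. Coverage was taken as the lowest recovered background of each list. Overlap meant at least 1 shared bp. Shares carry exact 95% intervals for counting error. Motifs (18) were searched on both strands in 300 bp around summits and in tiles every 1000 bp of the eligible introns. With 1 list per condition no test was made.

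The members and lists were chosen with earlier results of these data known. Named members were those with the highest fold in each class of overlap, the genes with most members, and the 2 genes of each gene list with the highest C29F4 fold. Some members that these criteria select are not reported here. Genes named as holders of the joined REST site, words and further list genes were added after their values were seen. Alternatives were a q-value under 0.001, 2 kb from starts, genes under 200 kb, no masked run left out, 50% overlap, summits within 250 bp, no input peak, thinned and equal lists, another transcript and a 200 bp window.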

Additional observations from a re-analysis of the deposited data

How the results depend on the processing

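Of 83 alternative values, 30 stayed within the interval of the reported value (gene counts, which have none, within 1.5 times of it) and 53 moved further. No paired analysis was possible because the C29F4 replicates were merged into 1 list and the results come from no test, and for the same reason no replicate could be left out. In percent, the share of peaks that were members in C29F4, ab9110 DMSO, ab9110 dTAG and input was 10.3, 14.7, 11.2 and 14.2 beyond 2 kb from starts and 9.0, 13.4, 11.1 and 14.1 for genes under 200 kb. It was 13.8, 7.60 and 12.8 in the last 3 at q-values under 0.001, and 14.0, 17.3 and 13.6 in the first 3 with masked runs kept. The overlap of C29F4 with ab9110 DMSO was 49.7 at q under 0.001, 55.7 at 50% overlap, 49.3 for summits within 250 bp, 41.8 with the DMSO list thinned and 46.9 with equal lists. In this order, ab9110 DMSO with C29F4 gave 24.2, 7.25, 9.41, 30.3 and 25.5, ab9110 DMSO with dTAG 15.2, 8.96, 10.0, 31.7 and 27.4, and dTAG with ab9110 DMSO 65.6, 33.2, 31.6, 26.2 and 29.7. C29F4 with dTAG gave 9.95, 14.3 and 13.2 under the first 3. Against all peaks, which include those near starts and in long masked runs, members overlapped less often in 26 of 28 alternatives. The exceptions were C29F4 with dTAG at 50% overlap (14.3 against 12.3) and dTAG with ab9110 DMSO at q under 0.001 (65.6 against 51.7), and the cause was not tested. Soft-masked shares were 28.4 (C29F4) and 30.1 (dTAG) in 300 bp windows, each across the 28.7 of eligible bases from its reported value, and 26.4 (dTAG) and 62.2 (input) at q under 0.001. At that q the first intron held 35.4 (dTAG) and 47.6 (input, now above the 26.8 of eligible bases), and 1546 (ab9110 DMSO), 405 (dTAG) and 22 (input) genes held a member, from 2031, 453 and 24 members. Motif shares in 200 bp were 5.34 for YY1 in C29F4, and 2.36 for ESRRB and 5.42 for KLF in ab9110 DMSO, where they were 4.58 and 9.31 at q under 0.001. The joined REST site was in 3.03 of C29F4 members with at most 2 letters different and 8.13 with at most 4, alternatives chosen after seeing the data. Coverage limits the ab9110 dTAG and input lists most, and the median input member rested on 9 fragments.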
